A study of Mus musculus with 12 samples.

Results

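The SLC25 family is the large family of carrier proteins that sit mostly in the inner mitochondrial membrane and exchange nucleotides, phosphate, organic acids, amino acids, cofactors and metal ions between the cytosol and the mitochondrial matrix. The phosphate carrier and the ADP/ATP carriers supply ATP synthase with its substrates, and other members join the malate-aspartate shuttle, citrate export, the carnitine shuttle and iron delivery to haem and iron-sulphur cluster synthesis. Proximal tubule cells depend on mitochondrial oxidation to power solute reabsorption, so carriers of this family are abundant in them.

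Members were the genes of the count and TPM tables whose symbol is Slc25a followed by a number, with the uncoupling protein genes Ucp1, Ucp2 and Ucp3, which belong to the same family. They were 50 of the 55491 genes. The cells were PT-22, a mouse kidney line labelled proximal tubule with the genotype Pax2-/-,Pax8fl/fl,Rosa-CreERT2: all libraries, the control included, come from this line, which lacks Pax2, carries Pax8 alleles flanked by loxP sites and holds a Cre recombinase that 4-hydroxytamoxifen activates. The 4 groups were untreated control cells and confluent cells 2, 6 and 12 days after 4-hydroxytamoxifen, which was given at 1 uM for 2 days, and polyA RNA was sequenced in 3 libraries (A, B and C) per group. No library of untreated cells kept for the same number of days and no library with the agent but without the floxed gene was analysed here, so loss of PAX8, the agent, Cre and time in culture cannot be told apart. The labels do not say that libraries came from separate cultures, so a p-value reflects only how far these libraries differ from each other.

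Library totals ran from 4326667 to 11654959 counts, and the lowest (day 2 B) was the shallowest in the floor that 3 counts allow, 0.702 CPM, the counts of a gene over the library total of the tested genes after edgeR's TMM scaling. Counts for the whole Pax8 gene did not fall: they stood at 225 ± 3.46 CPM in control, 402 ± 51.0 on day 2, 256 ± 10.9 on day 6 and 242 ± 10.5 on day 12 (mean ± SD, n = 3). Which exons lie between the loxP sites is not stated in the labels, so a count over the whole gene does not check the deletion, and each group below is the one its label names. Of 12 proximal tubule markers, Slc34a1, Slc5a2 and Slc5a12, which define mature tubule cells, were at 0 in all 12 libraries, while Lrp2 stood at 268 ± 17.2 CPM and Anpep at 114 ± 2.75 CPM in control. Of the 7 of these markers with enough counts to test, 5 were lower and 1, Aqp1, was higher on day 6 and again on day 12. The median log2 fold change of the 7 was -3.09 on day 6 and -2.64 on day 12. The sum of the 12 nevertheless rose, from 645 to 685 CPM in control to 699 to 760 on day 2 and 1136 to 1391 on day 6, where only Aqp1 was called higher. It was 651 to 853 CPM on day 12. The 6 fibroblast and smooth muscle markers summed to 5.40 to 5.85 CPM in control libraries and 298 to 347 CPM on day 12. Nearly all of the day 12 sum was Acta2 (293 ± 26.4 CPM), and Pdgfra was at 0 in every library. Of the 4 with enough counts to test, 3 (Acta2, Dcn and Pdgfrb) were higher on day 6 and again on day 12, beside 26.7% and 26.1% of all genes. Endothelial markers summed to at most 0.72 CPM and leukocyte markers to at most 10.3 CPM. The part of these shifts in the carrier results was not tested, and in bulk RNA fewer cells of a type and less RNA per cell cannot be told apart.

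Of the 50 members, 40 had enough counts to be tested. More of them were lower than higher at every day (called at an adjusted p under 0.05 in edgeR's quasi-likelihood test, adjusted over all 13513 genes tested). At day 2, 4 members were higher and 9 lower, against 10.3% and 10.9% of all genes. At day 6, 9 were higher and 19 lower, against 26.7% and 27.6% of all genes, and on day 12, 7 were higher and 17 lower, against 26.1% and 26.6%. As shares of the 40 tested, the lower calls came to 22.5%, 47.5% and 42.5% on days 2, 6 and 12 and the higher calls to 10%, 22.5% and 17.5%. The median log2 fold change of the 40 was -0.067, -0.27 and -0.19 at the 3 days, where that of all genes lay between -0.0060 and -0.0015. The day 2 median was -0.035 without day 2 A, -0.013 without day 2 C and -0.11 on the TPM scale. The day 6 median was -0.087 on log2(TPM + 1), where that of all genes was 0.086, and -0.18 with library medians equalised. Without a count filter it was 0 over 47 members, and so was that of all genes. That set adds members with at most 6 counts in any library. Its day 6 calls were 9 members higher and 20 lower, against 3729 and 3641 of all genes. The 3 comparisons against control share the control libraries. The 9 lower calls of day 2 became 5 without control C, without day 2 A or without day 2 C. The TPM scale moved the median of all genes by 0.12 on the log2 scale for day 6 against day 2 and by less elsewhere. On log2(TPM + 1), day 2 gave 4 members higher and 5 lower, against 745 and 999 of all genes. Once library medians were equalised it gave 4 of each, against 973 and 873.

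Of the steps between neighbouring times after control, that from day 2 to day 6 held the most calls. Day 6 against day 2 gave 6 members higher and 14 lower, against 22.6% and 22.3% of all genes. On log2(TPM + 1) it gave 7 higher and 7 lower, against 3372 higher and 1383 lower of all genes. With library medians equalised it gave 5 higher and 11 lower, against 2105 and 2474 of all genes. Day 12 against day 6 gave 4 higher and 7 lower, against 11.0% and 11.0% of all genes. The 7 lower calls of that last step fell to between 3 and 7 when single libraries were left out, the lowest without day 6 A, day 12 B or day 12 C, and to 4 with DESeq2. On the TPM scale with a pseudocount of 0.1 the step gave 3 higher and 3 lower, against 443 and 857 of all genes. With library medians equalised it gave 4 higher and 2 lower, against 685 and 707. Across the 4 groups, 29 of the 40 members passed the F-test, against 65.1% of all genes. Against control, 7 members were lower at all 3 days (among them Slc25a3, Slc25a4, Slc25a5, Slc25a11, Slc25a12 and Slc25a39) and 4 were higher at all 3 (Slc25a17, Slc25a24, Slc25a27 and Slc25a30). These are 17.5% and 10% of the 40, beside 8.16% and 7.67% of all genes tested. Another 9 were lower on days 6 and 12 without passing on day 2, and 3 were higher in that way (Slc25a25, Slc25a36 and Slc25a37), or 22.5% and 7.5% beside 12.8% and 12.5% of all genes. None was higher at one day and lower at another, as were 1.67% of all genes.

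**Figure D1:**
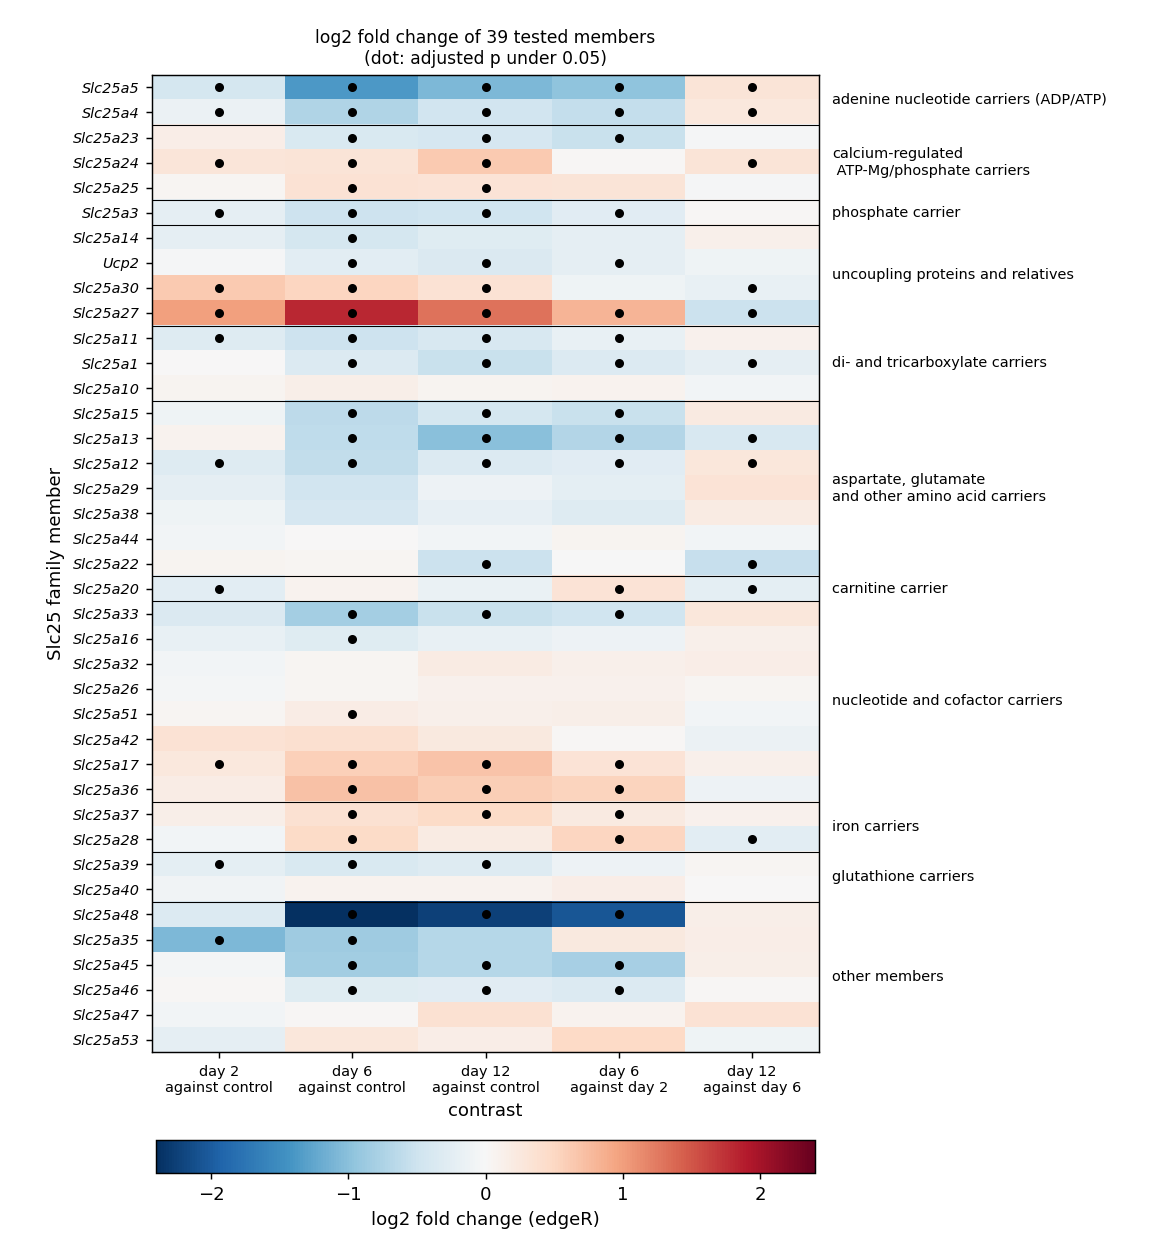
Log2 fold changes from edgeR of 39 of the 40 tested members (rows, grouped by what they carry) in 5 contrasts (columns), blue for lower and red for higher, with a dot where the adjusted p was under 0.05. Dots are most frequent on day 6 against control, with 18 of these members lower and 9 higher, and the deepest blue is Slc25a48 and the deepest red Slc25a27.

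In TPM, a level corrected for transcript length and so usable between genes, the family was dominated by a few carriers. In control the highest were Slc25a3 at 659.6 ± 22.7 TPM, Ucp2 at 368 ± 26.1, Slc25a4 at 349 ± 9.90 and Slc25a5 at 279.7 ± 14.8 (mean ± SD, n = 3). Ucp2 and Slc25a4 lay within their spread of each other in control and on day 2, and the first 3 kept their order at every time. At days 6 and 12 Slc25a17, a peroxisomal member, took the fourth rank at 166 and 173 TPM, and Slc25a5 came sixth. The TPM of all 50 members summed to 2908 ± 52.8 in control, 2594 ± 44.0 on day 2, 2524 ± 12.0 on day 6 and 2443 ± 52.7 on day 12. The 3 control libraries (2871 to 2969) lay above all 9 others (2397 to 2642). The 4 carriers highest in control made 56.9% ± 0.462 of that sum in control, 52.9% ± 1.76 on day 2, 47.5% ± 0.922 on day 6 and 48.3% ± 0.619 on day 12.

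**Figure D2:**
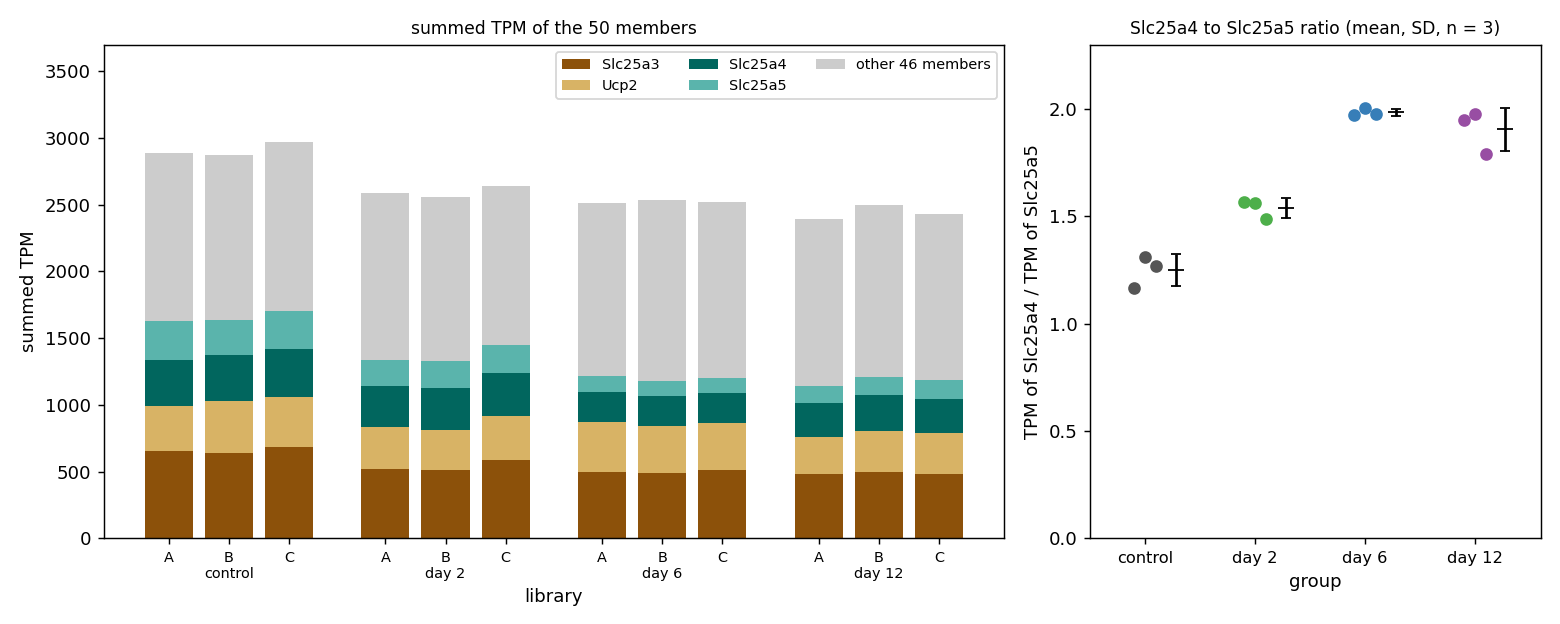
Left, summed TPM of the 50 members in each library, stacked by the 4 members highest in control and the other 46; right, the ratio of Slc25a4 TPM to Slc25a5 TPM by library (points) with the group mean and SD (bars, n = 3). The control libraries reach 2871 to 2969 TPM and the treated ones 2397 to 2642, and the ratio has a mean of 1.25 in control and 1.98 on day 6.

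The carriers that feed ATP synthase fell together. Slc25a3 (chromosome 10, 91116574 to 91124059 on GRCm38), which brings phosphate into the matrix, stood at 548, 564 and 564 CPM in the control libraries A, B and C, at 468, 488 and 479.7 on day 2, at 396, 389 and 398 on day 6 and at 415, 396 and 389.8 on day 12. No treated library reached the control range, and days 6 and 12 overlapped. The log2 fold change was -0.22 ± 0.050 (SE) on day 2 (adjusted p = 8.92e-04), -0.50 ± 0.050 on day 6 (adjusted p = 1.66e-10) and -0.48 ± 0.050 on day 12 (adjusted p = 4.30e-10).

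Slc25a5 (chromosome X, 36795651 to 36798807), the ADP/ATP carrier isoform of proliferating and many other cells, had 187, 179 and 179 CPM in control, 133, 139 and 137 on day 2, 70.4, 69.8 and 69.2 on day 6 and 83.5, 86.2 and 89.7 on day 12. The 4 groups did not overlap: the libraries stepped down to day 6 and came part of the way back on day 12. Its log2 fold change was -0.42 ± 0.057 on day 2, -1.38 ± 0.059 on day 6 (adjusted p = 2.65e-20) and -1.07 ± 0.058 on day 12, and the rise from day 6 to day 12 was 0.31 ± 0.061 (adjusted p = 2.90e-04). Its annotated pseudogene Slc25a5-ps held at most 4 counts in any library.

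Slc25a4 (chromosome 8, 46206797 to 46211284), the ADP/ATP carrier isoform best known from heart and skeletal muscle, had 378, 403 and 385 CPM in control, 351, 354 and 348 on day 2, 237, 238 and 230.2 on day 6 and 277, 289.9 and 275 on day 12. Its groups did not overlap either and took the same order as those of Slc25a5. Its log2 fold change was -0.72 ± 0.052 on day 6 (adjusted p = 3.61e-14) and -0.47 ± 0.051 on day 12, with a rise of 0.26 ± 0.052 from day 6 to day 12 (adjusted p = 3.61e-04). The small day 2 change of -0.15 ± 0.051 (adjusted p = 0.0371) did not hold without control B, where the adjusted p was 0.147, nor without several other single libraries. The TPM ratio of Slc25a4 to Slc25a5 was 1.25 ± 0.0735 in control and 1.54 ± 0.0449, 1.98 ± 0.0177 and 1.90 ± 0.101 on days 2, 6 and 12. An exact two-sided permutation test of the log2 ratio against control gave p = 0.1 at each day, the smallest that 3 against 3 libraries allow. The third isoform, Slc25a31, known from testis, had counts in 1 library.

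Sequence before the RefSeq start of 3 members is shown because Slc25a3 and Slc25a5 carry the falls above and Slc25a36, described further on, is among the largest rises (RefSeq, build GRCm38.p6, written 5′ to 3′ on the gene's strand, with motif matches in capitals). Of the 250 bases before each start, the stretch that also lies before the gene's start in GENCODE M21 is printed: 158 bases for Slc25a3, 250 for Slc25a5 and 134 for Slc25a36.
Slc25a3, chr10:91124060-91124217, minus strand: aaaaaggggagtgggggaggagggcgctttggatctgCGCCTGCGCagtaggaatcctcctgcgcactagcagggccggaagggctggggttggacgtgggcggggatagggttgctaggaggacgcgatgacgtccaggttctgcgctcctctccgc
Slc25a5, chrX:36795347-36795596, plus strand: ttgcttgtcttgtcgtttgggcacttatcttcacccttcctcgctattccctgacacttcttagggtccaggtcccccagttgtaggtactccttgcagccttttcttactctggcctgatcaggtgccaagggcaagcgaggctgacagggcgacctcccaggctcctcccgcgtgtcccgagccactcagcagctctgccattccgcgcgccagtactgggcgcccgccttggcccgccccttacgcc
Slc25a36, chr9:97111158-97111291, minus strand: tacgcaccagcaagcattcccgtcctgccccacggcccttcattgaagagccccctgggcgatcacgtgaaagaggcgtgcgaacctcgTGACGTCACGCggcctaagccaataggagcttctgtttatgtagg
The motifs searched on both strands were GCGCANGCG (NRF1), GCGTNAC (a short core of PAX-type sites), TCAAGGTCA (ERR), AAGATGGCG (YY1) and TGACGTCA (CRE). Slc25a3 held 1 NRF1 match, which begins 213 bases before the start, and 3 PAX-core matches between 71 and 43 bases before it, in the stretch not printed. Slc25a36 held a CRE match and a PAX-core match that share bases and are both printed, and Slc25a5 held none of the 5. Of all 32851 promoter windows of the same length, 5.16% held the NRF1 motif, 5.05% the PAX core, 1.55% the CRE, 0.606% the YY1 and 0.387% the ERR motif. The 39 members matched to RefSeq have 49 such windows, of which 2 (4.08%) held the NRF1 motif, in Slc25a3 and Slc25a31, and 9 (18.4%) the PAX core, in 8 members (Slc25a3, Slc25a14, Slc25a16, Slc25a36, Slc25a40, Slc25a42, Ucp1 and Ucp2), which include members that fell, that rose and that did not pass the test. A match is a description of the letters and shows no binding.

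Carriers of ATP-Mg against phosphate, which set the matrix adenine nucleotide pool under the control of cytosolic calcium, split in direction. Slc25a24 had 141, 126 and 130.1 CPM in control, 157, 162 and 166 on day 2, 159, 175 and 159 on day 6 and 204, 207 and 204 on day 12. All treated libraries lay above control, and day 12 lay above all others. Its log2 fold change was 0.29 ± 0.060 on day 2, 0.31 ± 0.059 on day 6 and 0.63 ± 0.058 on day 12 (adjusted p = 2.50e-11). Slc25a23 ran the other way after day 2: 183 ± 5.25 CPM in control, 205 ± 23.1 on day 2, 141 ± 5.91 on day 6 and 139 ± 5.98 on day 12, with log2 fold changes of -0.37 ± 0.066 (adjusted p = 1.26e-05) and -0.39 ± 0.066 at the last times. Slc25a25 had 14.4, 16.7 and 14.8 CPM in control, 13.9, 15.7 and 17.2 on day 2, 22.4, 19.3 and 16.3 on day 6 and 18.2, 17.7 and 21.5 on day 12. Its control and day 6 libraries overlapped. Its call on day 6 (log2 fold change 0.35 ± 0.13, adjusted p = 0.0205) was lost without day 6 A (adjusted p = 0.194), control A or control C, and with library medians equalised. Its day 12 call (0.33 ± 0.13, adjusted p = 0.0306) was lost with DESeq2 (adjusted p = 0.0634), with library medians equalised, and without control A, control C or day 12 C (adjusted p = 0.183). Slc25a41 was at 0 in all 12 libraries.

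Among the uncoupling proteins, Ucp2, which lowers the membrane potential or exports C4 acids, is the abundant one in these cells. It had 248, 261 and 249.9 CPM in control, 243, 273 and 233 on day 2, 206, 222 and 212 on day 6 and 202, 199 and 197 on day 12. Days 6 and 12 lay below control and the day 2 libraries spread across the control range. The log2 fold change on counts was -0.24 ± 0.058 on day 6 (adjusted p = 5.14e-04) and -0.34 ± 0.058 on day 12 (adjusted p = 5.22e-06). On the TPM scale the day 6 value was -0.031 (adjusted p = 0.754), and day 6 against day 2 turned from -0.22 on counts to 0.19, so the day 6 call rests on the scale. Ucp1, the uncoupler of brown fat, was at 0 in every library, and Ucp3 had too few counts to test.

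The relatives of the uncoupling proteins held the largest rise of the family. Slc25a27, first described as a brain carrier, had 3.57, 4.98 and 5.64 CPM in control, 11.0, 6.31 and 9.91 on day 2, 17.3, 16.1 and 16.7 on day 6 and 13.1, 10.8 and 11.4 on day 12. Every treated library exceeded every control library, and day 6 was the highest group. The log2 fold change was 0.99 ± 0.19 on day 2, 1.81 ± 0.17 on day 6 (adjusted p = 4.88e-11) and 1.30 ± 0.18 on day 12. The decline of -0.51 ± 0.15 from day 6 to day 12 (adjusted p = 0.0113) was lost in 5 of the 20 alternative settings run. Among them were leaving out day 6 A (adjusted p = 0.0537) or day 12 B (adjusted p = 0.0592). Slc25a30, named kidney mitochondrial carrier protein in mouse, had 82.8, 84.5 and 85.2 CPM in control, 135, 134 and 121 on day 2, 124, 124 and 113 on day 6 and 111, 106 and 103 on day 12. Its highest values were on day 2, although day 6 against day 2 did not pass (-0.11 ± 0.063, adjusted p = 0.164). On the log2 scale its fold change was 0.62 ± 0.065 on day 2 (adjusted p = 1.63e-09), 0.51 ± 0.064 on day 6 and 0.34 ± 0.064 on day 12. Slc25a14, a brain-type relative at 7.7 to 13.7 CPM, was lower on day 6 (-0.42 ± 0.16, adjusted p = 0.0225). That call was lost with DESeq2 (adjusted p = 0.0614) and without control B (adjusted p = 0.170), day 6 A or day 6 B.

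**Figure D3:**
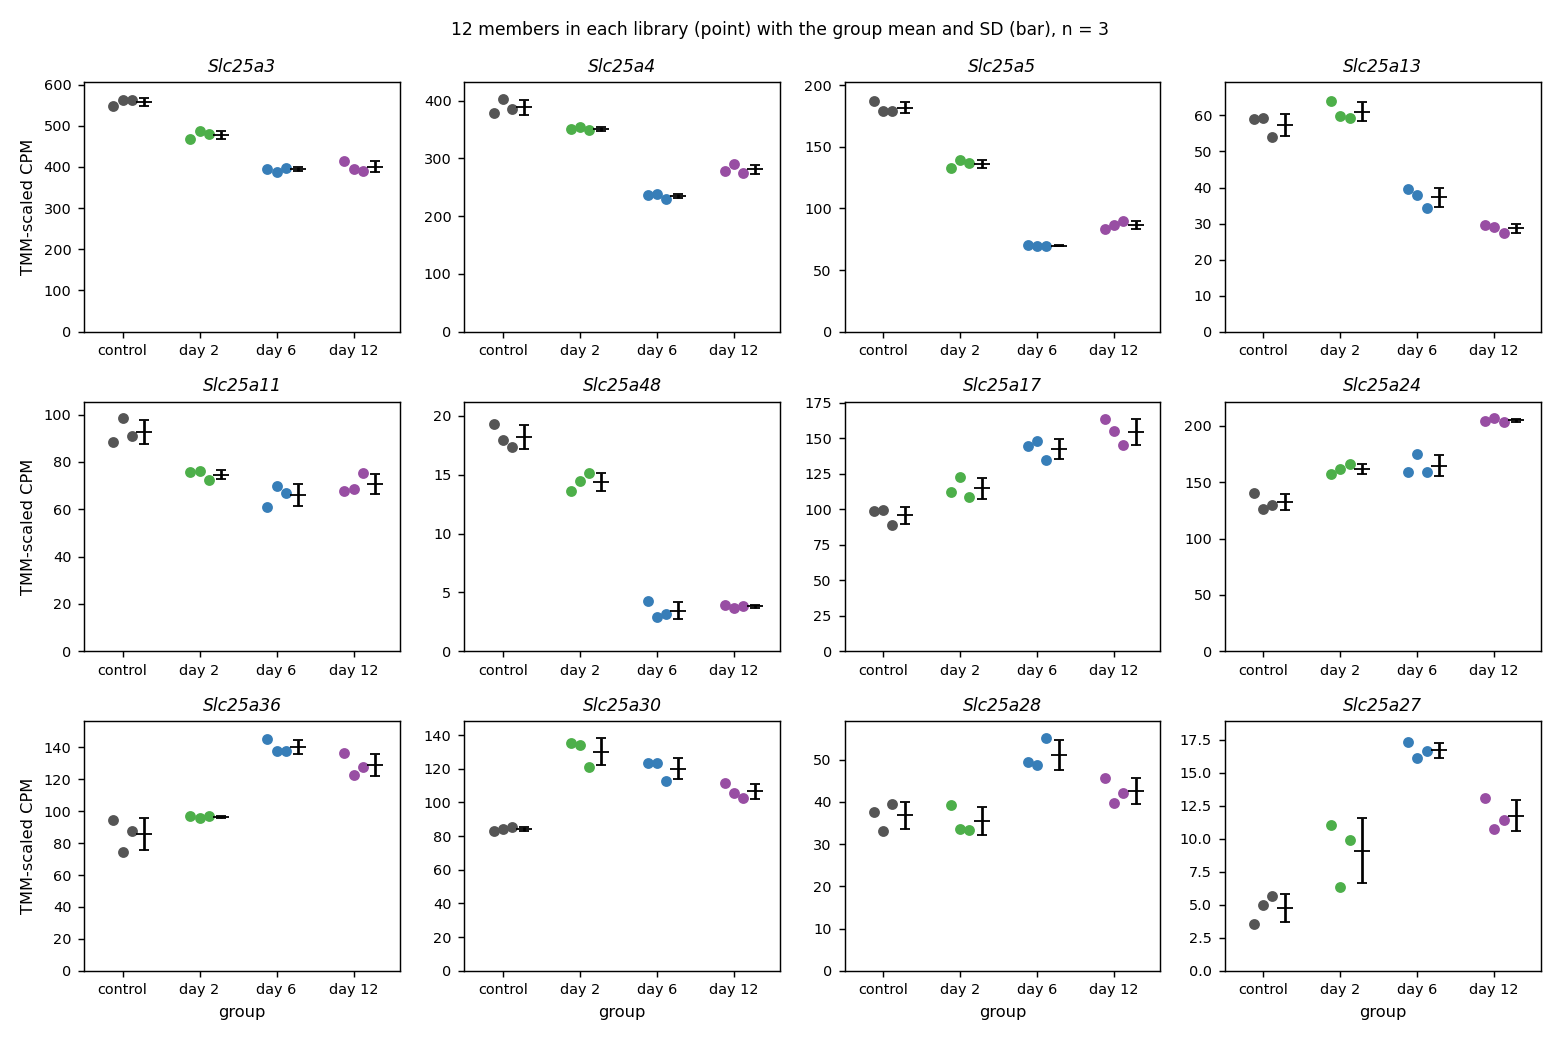
TMM-scaled CPM of 12 members in each library (points, A to C from left to right) with the group mean and SD (bars, n = 3); each axis starts at 0. Slc25a5 steps from 179 to 187 CPM in control to 69.2 to 70.4 CPM on day 6 and back to 83.5 to 89.7 CPM on day 12, while Slc25a17, Slc25a24, Slc25a27, Slc25a30 and Slc25a36 lie above control on days 6 and 12.

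Carriers of the malate-aspartate and citrate shuttles fell, at different times. Slc25a11, which exchanges oxoglutarate for malate, had 88.5, 98.5 and 91.1 CPM in control, 75.6, 76.0 and 72.3 on day 2, 60.9, 69.9 and 67.1 on day 6 and 67.8, 68.5 and 75.5 on day 12. All treated libraries lay below control, with log2 fold changes of -0.32 ± 0.071, -0.49 ± 0.070 and -0.39 ± 0.070 at the 3 days (adjusted p = 9.84e-04, 3.44e-07 and 1.41e-05). Rnf167 on the opposite strand shares 8.92% of its exon bases.

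Slc25a12 and Slc25a13, the aspartate/glutamate carriers aralar and citrin, did not follow the same course. Slc25a12 had 55.9, 48.6 and 50.3 CPM in control, 41.6, 44.0 and 40.2 on day 2, 33.9, 35.9 and 32.9 on day 6 and 41.8, 40.7 and 41.5 on day 12, with log2 fold changes of -0.31 ± 0.080, -0.59 ± 0.080 and -0.32 ± 0.078 (adjusted p = 7.42e-04 on day 12). On the TPM scale the falls on days 2 and 12 did not pass (adjusted p = 0.205 and 0.247). It was lowest on day 6 and had partly returned on day 12 (0.27 ± 0.081, adjusted p = 0.0149). That step was lost without day 6 A (adjusted p = 0.0579), day 6 C, day 12 A or day 12 C, and on both TPM scales. Slc25a13 had 59.0, 59.2 and 53.9 CPM in control, 64.1, 59.9 and 59.3 on day 2, 39.5, 38.0 and 34.4 on day 6 and 29.6, 29.1 and 27.3 on day 12. It was not lower on day 2 (0.092 ± 0.077, adjusted p = 0.456), then stood at -0.61 ± 0.079 on day 6 and -1.0 ± 0.082 on day 12 (adjusted p = 1.08e-12). Its further fall between days 6 and 12 was -0.39 ± 0.085 (adjusted p = 9.77e-04).

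Slc25a1, the citrate carrier that supplies cytosolic acetyl-CoA, took a similar course: 95.6, 97.7 and 93.2 CPM in control, 103, 103 and 85.2 on day 2, 78.4, 72.4 and 77.9 on day 6 and 64.6, 68.6 and 64.4 on day 12. Against control it stood at a log2 fold change of 0.0080 ± 0.071 on day 2 (adjusted p = 0.957), -0.32 ± 0.071 on day 6 and -0.54 ± 0.072 on day 12 (adjusted p = 8.67e-08). On the TPM scale the day 6 fall of Slc25a1 was -0.20 and did not pass (adjusted p = 0.101). Slc25a10, the dicarboxylate carrier of malate and succinate, did not pass at any time: 70.5, 76.7 and 78.7 CPM in control, 77.9, 88.6 and 72.0 on day 2, 82.2, 81.0 and 84.8 on day 6 and 74.9, 83.2 and 79.0 on day 12, with 0.13 ± 0.072 on day 6 (adjusted p = 0.118).

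Of the other amino acid carriers, the glutamate carrier Slc25a22 was lower on day 12 alone among the days. It had 27.4, 24.9 and 22.2 CPM in control, 24.2, 28.8 and 25.6 on day 2, 26.1, 25.3 and 25.6 on day 6 and 16.9, 17.5 and 17.8 on day 12. The day 12 libraries lay below all others, with a log2 fold change of -0.51 ± 0.11 against control (adjusted p = 1.12e-04) and -0.56 ± 0.10 against day 6 (adjusted p = 1.29e-04). The ornithine carrier of the urea cycle, Slc25a15, was lower on day 6 (-0.63 ± 0.14, adjusted p = 2.03e-04) and day 12 (-0.42 ± 0.13, adjusted p = 0.00955) from 17.6 ± 1.62 CPM in control; the day 12 call did not pass on the TPM scale (adjusted p = 0.0958). The branched-chain amino acid carrier Slc25a44, at 55.4 to 70.6 CPM, the glycine carrier Slc25a38 and the basic amino acid carrier Slc25a29 passed in no contrast.

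Slc25a20, which exchanges acylcarnitine for carnitine so that fatty acids can be oxidised, changed little. It had 35.4, 33.3 and 36.6 CPM in control, 28.7, 32.3 and 28.9 on day 2, 37.2, 37.6 and 36.4 on day 6 and 32.0, 31.0 and 31.5 on day 12. Day 2 was the lowest group and day 6 the highest: the rise between them was 0.32 ± 0.086 (adjusted p = 0.00239). The day 2 fall of -0.25 ± 0.087 (adjusted p = 0.0377) was lost in 9 of 20 alternatives. Among them were leaving out control C (adjusted p = 0.143), control A, day 2 A, day 2 C or day 12 B. The fall of -0.24 ± 0.083 from day 6 to day 12 (adjusted p = 0.0372) was lost in 10 of 20, among them without any single day 6 or day 12 library. Neither day 6 nor day 12 differed from control at the threshold (adjusted p = 0.456 and 0.109).

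Carriers of nucleotides and cofactors held sustained rises. Slc25a17, a carrier of coenzyme A, FAD and NAD in the peroxisomal membrane, had 98.8, 99.5 and 89.1 CPM in control, 112, 123 and 109 on day 2, 145, 148 and 135 on day 6 and 163, 155 and 145 on day 12. Every treated library lay above control, and days 6 and 12 overlapped. The log2 fold change was 0.25 ± 0.067 on day 2 (adjusted p = 0.00536, or 0.0640 without control C), 0.58 ± 0.065 on day 6 and 0.69 ± 0.065 on day 12 (adjusted p = 3.43e-11). Slc25a36, a pyrimidine nucleotide carrier, had 94.3, 74.6 and 87.6 CPM in control, 96.8, 95.6 and 97.0 on day 2, 145, 138 and 138 on day 6 and 137, 123 and 128 on day 12. Its day 2 libraries lay above control, but the day 2 change of 0.17 ± 0.071 did not pass (adjusted p = 0.0862). The larger step came between days 2 and 6 (0.54 ± 0.068, adjusted p = 5.48e-08). Against control the log2 fold change stood at 0.71 ± 0.068 on day 6 and 0.59 ± 0.068 on day 12. The other pyrimidine nucleotide carrier, Slc25a33, moved the opposite way: 10.7 ± 2.43 CPM in control, 6.04 ± 0.334 on day 6 and 7.26 ± 1.22 on day 12, with -0.81 ± 0.18 on day 6 (adjusted p = 2.24e-04). Its day 12 call (-0.54 ± 0.17, adjusted p = 0.00884) was lost without control B (adjusted p = 0.103) or day 12 A, and 14.9% of its exon bases lie under Gm13068 on the opposite strand.

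Several other cofactor carriers moved little. Slc25a51, the NAD carrier, rose on day 6 (0.19 ± 0.063, adjusted p = 0.0129), a call lost in 4 of 20 alternatives, among them without control C (adjusted p = 0.0946). Slc25a16, linked to coenzyme A, fell on day 6 alone (-0.30 ± 0.091, adjusted p = 0.00585), but not on the TPM scale (adjusted p = 0.143). The coenzyme A carrier Slc25a42, the S-adenosylmethionine carrier Slc25a26 and the folate and FAD carrier Slc25a32 passed in no contrast.

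Both iron carriers rose. Slc25a37 (mitoferrin-1) had 34.8, 29.1 and 30.1 CPM in control, 33.5, 34.4 and 35.7 on day 2, 42.7, 38.6 and 39.3 on day 6 and 46.6, 39.2 and 43.4 on day 12. The difference from control was 0.36 ± 0.089 on day 6 (log2 fold change, adjusted p = 8.35e-04) and 0.46 ± 0.088 on day 12 (adjusted p = 4.25e-05), with all 6 libraries above control. Slc25a28 (mitoferrin-2) had 37.7, 33.2 and 39.5 CPM in control, 39.2, 33.7 and 33.4 on day 2, 49.5, 48.6 and 55.1 on day 6 and 45.7, 39.7 and 42.1 on day 12. It peaked on day 6 (0.46 ± 0.087, adjusted p = 2.76e-05) and on day 12 no longer passed against control (0.20 ± 0.088, adjusted p = 0.0536). The decline between them, -0.26 ± 0.085 (adjusted p = 0.0237), was lost in 6 of 20 alternatives, among them without day 6 C (adjusted p = 0.140), day 12 B or day 12 C.

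Of the glutathione carriers, Slc25a39 fell and Slc25a40 passed in no contrast. Slc25a39 had 139, 144 and 155 CPM in control, 113, 147 and 119 on day 2, 111, 112 and 119 on day 6 and 115, 124 and 116 on day 12. Day 2 B lay inside the control range, and the day 2 call (-0.23 ± 0.072, adjusted p = 0.0184) was lost in 7 of 20 alternatives. Among them were leaving out control C (adjusted p = 0.122), day 2 A or day 2 C. Days 6 and 12 lay below control, with log2 fold changes of -0.36 ± 0.071 (adjusted p = 6.54e-05) and -0.31 ± 0.071 (adjusted p = 4.71e-04). On the TPM scale they just missed the threshold (adjusted p = 0.0579 and 0.0601). Slc25a40 held 17.5 ± 1.84 CPM in control and 18.4 ± 2.84 on day 6.

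The largest fall of the family was in Slc25a48 (chromosome 13, 56438355 to 56474239), a carrier linked to the uptake of choline into mitochondria. It had 19.4, 18.0 and 17.4 CPM in control, 13.6, 14.5 and 15.1 on day 2, 4.27, 2.87 and 3.20 on day 6 and 3.97, 3.70 and 3.80 on day 12. All 6 late libraries lay far below all 6 earlier ones, with log2 fold changes of -2.38 ± 0.16 on day 6 (adjusted p = 9.50e-15) and -2.25 ± 0.16 on day 12 (adjusted p = 2.24e-14). At day 2 the groups did not overlap, but the change of -0.33 ± 0.13 did not pass (adjusted p = 0.074). Slc25a45 had 9.45, 13.8 and 9.72 CPM in control, 9.93, 11.7 and 10.4 on day 2, 6.86, 5.75 and 5.60 on day 6 and 6.53, 5.16 and 8.53 on day 12. Its day 2 libraries lay within the control range, and it was lower on day 6 (-0.83 ± 0.18, adjusted p = 2.26e-04) and day 12 (-0.68 ± 0.18, adjusted p = 0.00163).

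Slc25a46, an outer membrane member that acts in mitochondrial shape, was lower on day 6 (-0.30 ± 0.10, adjusted p = 0.0118) and day 12 (-0.26 ± 0.099, adjusted p = 0.024). Both calls were lost without control A (adjusted p = 0.0986 and 0.162), and the control and treated libraries overlapped. The day 6 call was lost in 4 of 20 alternatives and the day 12 call in 7. Slc25a35, at 0.7 to 3.1 CPM, was called lower on days 2 and 6. Its day 2 call was lost in 10 of 20 alternatives, which include leaving out any single control or day 2 library. Its day 6 call was lost in 11 of 20 alternatives, which include DESeq2, the TPM scales and leaving out any single control library, with an adjusted p of 0.233 without day 6 C, and 31.3% of its exon bases lie under Rangrf on the opposite strand. Slc25a47 and Slc25a53 passed in no contrast. In all, 10 tested members (25%) passed against control at no day, beside 33.3% of all genes.

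The 10 members not tested (Slc25a2, Slc25a18, Slc25a21, Slc25a31, Slc25a34, Slc25a41, Slc25a43, Slc25a54, Ucp1 and Ucp3) had at most 6 counts in any library, and Slc25a41, Slc25a43 and Ucp1 had none. They include other forms of carriers described above (Slc25a2 for ornithine, Slc25a18 for glutamate, Slc25a31 for ADP/ATP). A count of 3, taken as the limit that a count of 0 allows, corresponds to 0.256 to 0.702 CPM per library, counting error only, so lower levels were not detectable at this depth. Of the 50 members, 15 share exon bases with another gene, mostly on the opposite strand, and since the labels do not say whether counting used the strand, reads of such pairs may be mixed. Among the members with values above these are Slc25a10, Slc25a11, Slc25a23, Slc25a25, Slc25a33, Slc25a35, Slc25a37, Slc25a46, Slc25a51 and Ucp2. Their shares of exon bases ran from 2.27% (Slc25a51) to 31.3% (Slc25a35).

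For the related lists that follow, the day 6 shares of all genes tested are 26.7% higher and 27.6% lower. The enzymes that work with the shuttle carriers fell as a whole list. Of 14 enzymes of the malate-aspartate, citrate and glycerol phosphate shuttles, 8 were lower and 1 was higher on day 2, and all 14 were lower on day 6 and on day 12, with a median log2 fold change of -0.63 on day 6. Gpd1, the cytosolic glycerol phosphate dehydrogenase, went from 136 ± 11.7 CPM in control to 32.0 ± 2.50 on day 6 (-2.08 ± 0.076, adjusted p = 3.28e-22). Mdh2, the matrix malate dehydrogenase, went from 351 ± 15.6 to 188 ± 9.05 CPM (-0.90 ± 0.055, adjusted p = 5.56e-16), and Got1, the cytosolic aspartate aminotransferase, from 104 ± 5.65 to 52.7 ± 1.53 CPM (-0.98 ± 0.073, adjusted p = 1.05e-13). Acly, which cleaves exported citrate, was among the smallest p on day 12 (-0.88 ± 0.053).

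Other transporters of the mitochondrial membranes were more often lower than higher against control at each day. Of 18 genes of the pyruvate carrier, the sideroflexins, the porins and the calcium uniporter, 9 were lower (50%) and 2 higher (11.1%) on day 6. Mpc2, a subunit of the mitochondrial pyruvate carrier, had 79.5 ± 2.55 CPM in control and 21.1 ± 4.26 on day 6 (-1.90 ± 0.098, adjusted p = 1.53e-17), and Vdac1, an outer membrane porin, 273 ± 12.0 and 146 ± 4.67 CPM (-0.91 ± 0.057, adjusted p = 9.84e-16). The 2 that rose were Sfxn3, a sideroflexin (0.89 ± 0.075), and Slc8b1, the mitochondrial sodium/calcium exchanger (1.09 ± 0.10). Of the pair with a carrier fold outside the naming rule, Mtch2 fell on day 6 (-0.30 ± 0.069, adjusted p = 4.52e-04) and day 12, and Mtch1 passed in no contrast.

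Of 16 genes of the route by which carriers are imported, 8 were lower (50%) and 1 higher (6.25%) on day 6. Tomm40, the pore of the outer membrane translocase, had the smallest p of them (-0.62 ± 0.069, adjusted p = 1.66e-09), followed by the small intermembrane chaperones Timm8a1 (-0.84 ± 0.13) and Timm13 (-0.41 ± 0.087). Of 18 tested genes of iron uptake and storage, iron-sulphur clusters and haem, 11 were lower (61.1%) and 3 higher (16.7%) on day 6. Both iron carriers were higher on that day. The haem synthesis enzyme Cpox stood at -0.69 ± 0.093 and the next enzyme, Ppox, at 0.62 ± 0.092.

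Of 15 genes of fatty acid activation and entry, which work with the carnitine carrier, 6 were higher (40%) and 4 lower (26.7%, near the share of all genes) on day 6. The acyl-CoA synthetases moved apart: Acsl3 rose from 76.8 ± 3.70 to 243 ± 3.00 CPM (1.66 ± 0.066, adjusted p = 2.81e-21) and Acsl4 by 0.85 on the log2 scale, while Acsl1 started from 60.3 ± 1.22 CPM and changed by -1.52 ± 0.089 on the log2 scale (adjusted p = 1.64e-16). Of 19 tested regulators of mitochondrial biogenesis, 8 were lower (42.1%) and 4 higher (21.1%) on day 6. Ppargc1a, a coactivator that raises mitochondrial genes, stood at 69.5 ± 4.46 CPM in control, 51.5 ± 4.56 on day 2, 33.4 ± 0.676 on day 6 and 33.6 ± 2.07 on day 12 (-1.06 ± 0.082 on day 6, adjusted p = 3.53e-13). Its partner receptor Esrrg fell from 19.6 ± 1.88 to 5.15 ± 1.45 CPM (-1.95 ± 0.19), and the nuclear receptor Pparg rose from 1.86 ± 0.232 to 11.6 ± 1.33 CPM (2.64 ± 0.20). The share of counts from genes of the mitochondrial genome was 3.75% to 5.70% over the 12 libraries: every day 6 library (3.75% to 4.03%) lay below every day 2 and day 12 library, and day 6 overlapped control (4.00% to 4.43%). Its part in the carrier results was not tested.

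**Figure D4:**
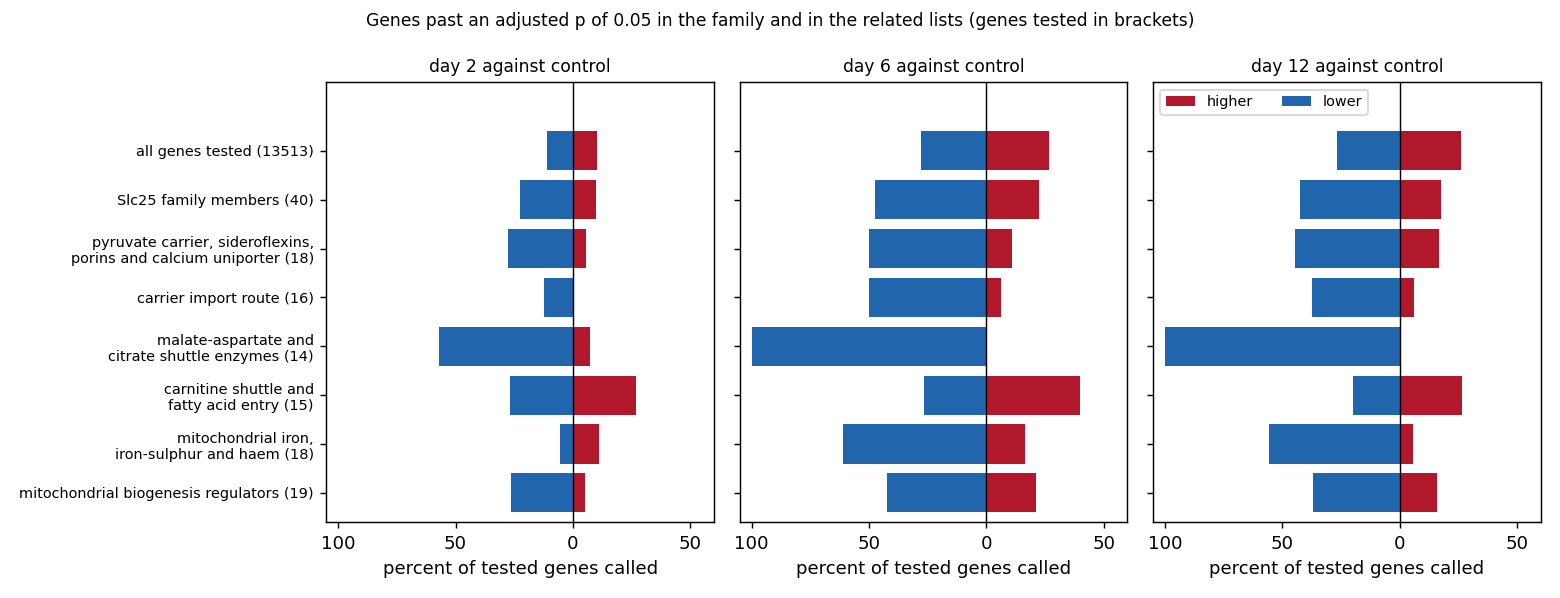
Percent of the tested genes of each list that were higher (red, to the right) or lower (blue, to the left) than control on days 2, 6 and 12, for all 13513 genes tested, for the 40 tested members and for 6 related lists (number tested in brackets). The family's lower bar is 47.5% on day 6 beside 27.6% for all genes, and the shuttle enzymes reach 14 of 14 lower on days 6 and 12.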

How the data were processed

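The data are 12 libraries of polyA RNA from PT-22 cells. The tools listed in the submitters' processing notes are STAR 2.7.8a, RSEM 1.3.3, cutadapt 2.3 and FastQC 0.11.8, and the build is GRCm38; the annotation release, strand use and filters are not given in the sources used here. The authors deposited RSEM expected counts as whole numbers without normalization, and TPM values (scaled to the library and to transcript length) in a separate table. Groups came from the labels. No pair of libraries within a group was a copy (chi-square per degree of freedom 2.12 to 7.56), and pairs from different groups were not compared.

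The test was edgeR 4.0.16 in R 4.3.3: filterByExpr by group left 13513 of 55491 genes, libraries were scaled with TMM, and 1 robust quasi-likelihood model on the group covered all 12 libraries, with 8 degrees of freedom left. SE is the absolute log2 fold change over the square root of F. All tests were two-sided, with Benjamini-Hochberg adjustment over the genes tested and a threshold of 0.05. The script was tested on simulated data. Alternatives were size factors of DESeq2's kind (RLE), DESeq2 1.42.0, no count filter, the 2 groups compared alone, limma 3.58.1 on log2(TPM + 1) and log2(TPM + 0.1), the replicate block and leaving out each library; limma on log2(TPM + 1) with library medians equalised was added after seeing the data. Positions and exon overlaps came from GENCODE M21, which held all 50 members under the same symbol, and promoter windows, found for 39 of the 50, from RefSeq.

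Library values are given for members by rule: up to 4 rises and 4 falls with the largest log2 fold change in each contrast among called members with a mean of at least 5 CPM, and 15 members chosen for their roles. Up to 3 genes with the smallest p are named per related list. Of the genes these rules choose, 1 member and 1 gene of a related list are not reported here. The members, lists and rules were chosen with earlier results of these data known, so they are no independent evidence.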

Additional observations from a re-analysis of the deposited data

How the results depend on the processing

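Of 96 member calls over the 5 contrasts, 61 kept their direction and their side of the threshold under every alternative run, 34 lost the threshold under at least 1, and 1 changed sign. DESeq2 lost 12 of them, no count filter 7, limma on log2(TPM + 1) 27, log2(TPM + 0.1) 28 and equalised library medians 22; the cause was not tested. The call that changed sign was Ucp2 at day 6 against day 2, at 0.19, 0.19 and 0.048 in the same order of TPM alternatives. Slc25a22 in that contrast, not called on counts (-0.012), was 0.36 and 0.37 on the 2 TPM scales (adjusted p = 0.0437 and 0.0443).

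The count of lower members at day 2 (9) was 5 on both TPM scales, 4 with equalised medians and 5 to 9 with single libraries left out. For day 6 against day 2 the 14 lower became 7 on both TPM scales, where the 3007 lower of all genes became 1383 and 1380. For day 12 against day 6 the 7 lower became 4 with DESeq2 and on log2(TPM + 1), 3 on log2(TPM + 0.1), 2 with equalised medians and 3 to 7 with single libraries left out. The other counts of members, higher and lower, stayed within 1.5 times of their value.

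The labels do not say whether the letters A, B and C mark a shared batch or day, and the libraries were not taken as paired: the correlation of same-letter deviations ran from -0.149 to 0.111 over the 5 contrasts. For day 12 against control all 3 were positive (0.059 to 0.111) and each letter correlated best with its own, a hint from the data and not from the design. With the letter as a replicate block no member call was lost, day 12 gave 8 higher members in place of 7, and 28 passed across the 4 groups in place of 29. Depth limits the members under about 5 CPM, among them Slc25a35 in every group. It also limits Slc25a48 on days 6 and 12 (2.87 to 4.27 CPM) and Slc25a27 in control (mean 4.73 CPM).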
